A study of Homo sapiens with 9 samples.

Results

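The integrated stress response regulators are 10 genes, taken from the count table by symbol: the transcription factor genes ATF4, CEBPB, CEBPG, DDIT3 and ATF3 and the genes TRIB3, CHAC1, SESN2, DDIT4 and PPP1R15A. All 10 were found among the 28307 genes of the table, and all 10 passed the filter on low counts that left 15619 tested genes. RNA sequencing measured them in SW620, a human colon adenocarcinoma line that was established from a lymph node metastasis. The cells were kept floating, on coated plates that prevent attachment, in M11 medium with insulin, basic FGF and EGF. After 48 h 3 conditions were sampled: cells given 120 µM streptomycin (SM), cells given 120 µM dihydrostreptomycin (DSM) and untreated cells, with 3 libraries each, all labelled wild type and all from this 1 line. SM is an aminoglycoside that binds the small subunit of the bacterial ribosome, and DSM carries an alcohol in place of the aldehyde on the streptose sugar of SM. The design text describes the replicates as biological, and the labels number them 1 to 3 in each condition without saying what a number shares.

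The integrated stress response starts when a kinase (HRI, PKR, PERK or GCN2, encoded by EIF2AK1 to EIF2AK4) phosphorylates the translation initiation factor eIF2. General protein synthesis then slows, while a few mRNAs with short upstream reading frames, ATF4 above all, are translated better. The ATF4 protein pairs with other bZIP factors, C/EBP proteins among them, at composite C/EBP-ATF elements and turns on genes of amino acid supply, tRNA charging, redox balance and, when stress lasts, cell death. Because ATF4 and PPP1R15A are controlled largely in translation, their mRNA levels are only part of their regulation.

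Library totals lay between 39315662 counts (SM replicate 2) and 65562227 counts (untreated replicate 1). The replicate number held 48.0% of the sum of squares of log2 CPM (counts scaled to the library total) over all tested genes and the treatment 19.5%. The rest held 32.5%. These shares are not adjusted for degrees of freedom, so each also holds noise. Libraries with the same number deviated together from their group means, so every treatment effect below comes from an edgeR model in which replicate number is a block, and the treatment counts are also given without it. All 8 colon epithelial markers looked at were tested, though KRT20 had group means of only 0.22 to 0.32 CPM. Of the fibroblast markers 3 of 6 were tested, of the leukocyte markers 2 of 6 and of the endothelial markers 2 of 5. COL3A1 and DCN, defining markers of fibroblasts, had no count in any library, and PTPRC, CD3E, CDH5, KDR and TEK averaged under 0.1 CPM. Other markers of these lists were detected, with group means of 8.90 to 10.1 CPM for COL1A1, 7.41 to 9.98 CPM for LUM, 6.15 to 7.02 CPM for LYZ and 1.95 to 2.35 CPM for VWF.

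Short promoter stretches are shown for the 4 regulators in which a script found a C/EBP-ATF element or an ATF/CRE palindrome, since these are the DNA elements that ATF4, ATF3 and C/EBP proteins are known to bind. The windows are RefSeq's for GRCh38.p14, 250 bases before to 50 after each annotated start, 17 windows for the 10 genes. The element TGATGNAA, read on both strands, stood in at least 1 window of ATF3, CHAC1 and CEBPG, 3 of the 10 regulators, and in 3.62% of all 35116 windows (4.46% of 27305 genes). The palindrome TGACGTCA stood in 1 of the 10, PPP1R15A, against 2.25% of all genes and 1.85% of all windows. Each line gives 30 bases 5′ to 3′ on the plus strand, which is also the strand of these 4 genes, with the element in capitals.
ATF3, chr1:212565205-212565234, in no GENCODE v29 exon, element starting 191 bases before the start site: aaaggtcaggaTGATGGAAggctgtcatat
CHAC1, chr15:40953251-40953280, inside a GENCODE v29 exon of CHAC1, element 209 bases before the RefSeq start and on the minus strand, so that the capitals are its reverse complement: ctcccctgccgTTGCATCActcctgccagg
CEBPG, chr19:33374060-33374089, in no exon, element 42 bases before a RefSeq start that lies inside the gene: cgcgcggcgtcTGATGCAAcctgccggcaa
PPP1R15A, chr19:48872352-48872381, in no exon, palindrome 58 bases before the start: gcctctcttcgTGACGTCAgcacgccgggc
These matches describe letters in these windows and were not tied to the expression differences below.

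ATF4 (chr22:39520559-39522686, GRCh38.p14, as all positions here), the bZIP factor at the centre of the response, stood at 421, 727 and 688 CPM in SM replicates 1, 2 and 3, at 429, 560.4 and 537 CPM in DSM, and at 413, 569.7 and 581 CPM in untreated cells. The 3 libraries numbered 1 lay lowest and within a narrow range of each other, and the 2 other SM libraries were the highest of all 9. CEBPB (chr20:50190583-50192690), which encodes a C/EBP family partner and target of ATF4, stood at 21.9, 51.9 and 40.4 CPM with SM, 19.2, 29.7 and 28.96 CPM with DSM, and 20.0, 36.5 and 32.8 CPM without treatment. CEBPG (chr19:33373709-33382686), whose product lacks a strong activation domain and dimerises with ATF4, stood at 52.7, 82.1 and 83.0 CPM with SM, 51.6, 68.2 and 63.3 CPM with DSM, and 50.5, 69.0 and 67.3 CPM without treatment. For both C/EBP genes the replicate 1 cultures were again the lowest in every condition, and SM replicates 2 and 3 the highest. RefSeq holds 4 ATF4 pseudogenes, 0 of which are in the count table. It places the antisense gene CEBPB-AS1 across CEBPB. That antisense gene had 47 to 79 counts per library against 1066 to 2222 for CEBPB, and the strand setting of the counting is not given in the sources used here.

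DDIT3 (chr12:57516588-57520517, minus strand) encodes CHOP, a C/EBP relative induced under lasting stress that promotes cell death. Its levels were 10.3, 24.7 and 14.8 CPM with SM, 10.3, 14.1 and 13.6 CPM with DSM, and 9.95, 16.3 and 13.2 CPM in untreated cells. SM replicate 2, the shallowest library, stood well above the 8 others. The 3′ end of DDIT3 overlaps that of MARS1, on the other strand of chromosome 12, over 65 bases, and 2 further RefSeq genes, MIR616 and LOC128125814, lie across it, so its counts could hold some of their reads. ATF3 (chr1:212565407-212620777), a factor of the same family that can repress or activate stress genes, stood at 5.92, 12.2 and 9.61 CPM with SM, 5.24, 8.84 and 7.15 CPM with DSM, and 5.94, 9.30 and 7.27 CPM without treatment. Its SM and untreated libraries coincided in replicate 1 and separated in replicates 2 and 3.

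Among the targets, TRIB3 (chr20:380760-397559) encodes a pseudokinase that binds ATF4 and CHOP and restrains their activity. It reached 207, 396 and 352 CPM with SM, 194, 262 and 259 CPM with DSM, and 203, 302 and 284 CPM without treatment. CHAC1 (chr15:40953471-40956512) encodes a γ-glutamylcyclotransferase that breaks down glutathione. It varied most of the 10, with 7.03, 38.2 and 39.8 CPM in SM, 5.83, 24.5 and 19.4 CPM in DSM, and 4.88, 30.2 and 21.3 CPM in untreated cells, so that its highest library held 8.15 times its lowest. No other regulator spanned more than 4.59 times.

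SESN2 (chr1:28259518-28282491) and DDIT4 (REDD1, chr10:72273924-72276036) encode brakes on the growth kinase complex mTORC1, the first through amino acid sensing and the second through TSC2. SESN2 stood at 11.6, 36.2 and 33.7 CPM with SM, 8.998, 22.7 and 18.5 CPM with DSM, and 9.02, 27.1 and 22.1 CPM in untreated cells. DDIT4 stood at 26.4, 111 and 108 CPM with SM, 24.5, 66.7 and 58.2 CPM with DSM, and 24.1, 82.0 and 73.4 CPM in untreated cells. In DDIT4 the 3 libraries numbered 1 lay between 24.1 and 26.4 CPM, whatever the treatment. PPP1R15A (chr19:48872421-48876058) encodes GADD34, a regulatory subunit of the phosphatase that dephosphorylates eIF2 and closes the loop. Its levels were 134, 176 and 132 CPM with SM, 109.7, 143 and 117 CPM with DSM, and 116, 142 and 108 CPM without treatment, and it was the one regulator whose replicate 1 libraries did not all lie below the others.

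**Figure D1:**
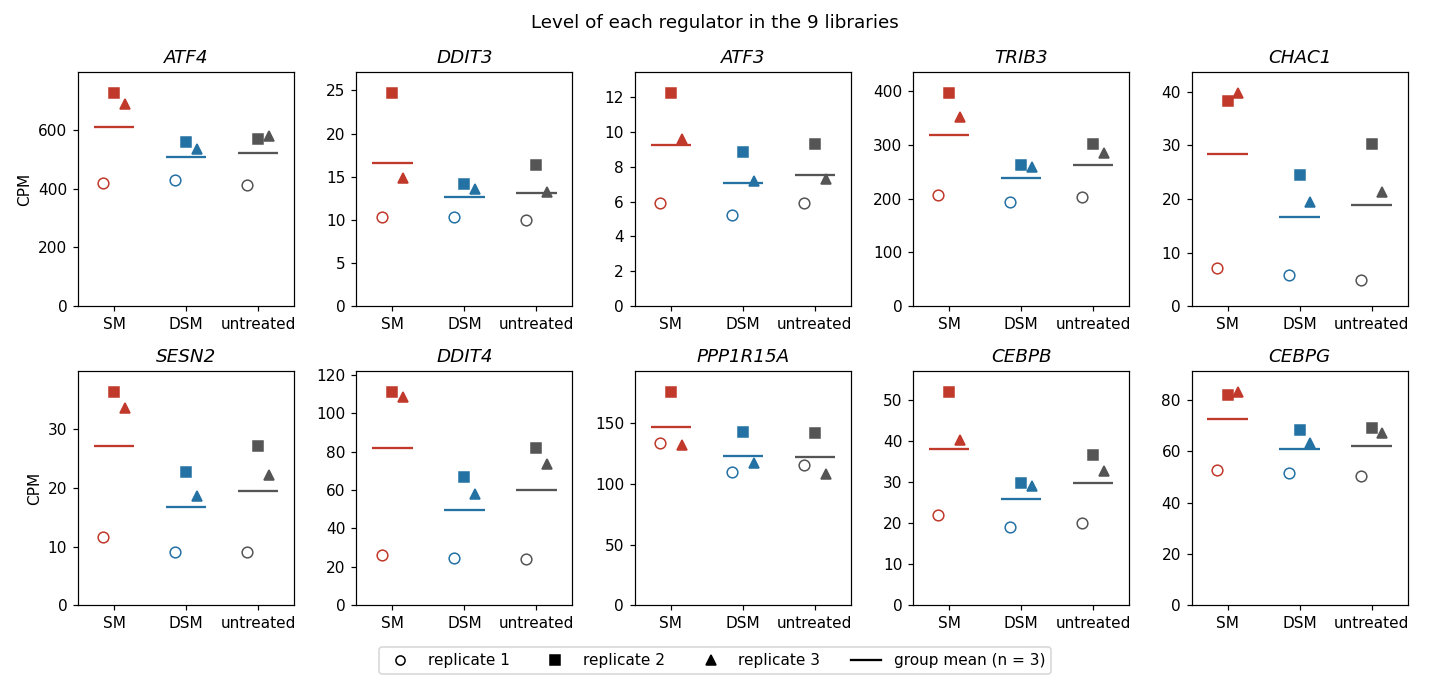
CPM of each regulator (y axis, from 0) in SM, DSM and untreated libraries, with open circles for replicate 1, squares for replicate 2, triangles for replicate 3 and a bar at the group mean of 3. Replicate 1 is lowest in every condition for all regulators except PPP1R15A, and SM replicates 2 and 3 tend to stand highest.

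Against untreated cells, SM raised 4 of the 10 regulators and lowered 0 (edgeR adjusted p under 0.05), against a background of 2.74% of all tested genes called in either direction, 1.2% as higher and 1.54% as lower. SESN2 had means of 27.2 ± 13.5 CPM in SM libraries and 19.4 ± 9.34 CPM in untreated libraries (SD, n = 3 each) and rose by 0.48 on the log2 scale (SE 0.06, edgeR adjusted p = 6.81e-05). PPP1R15A averaged 147 ± 24.6 CPM with SM and 122 ± 17.7 CPM without, a rise of 0.27 (SE 0.04, edgeR adjusted p = 5.42e-05). CEBPB averaged 38.1 ± 15.1 CPM with SM and 29.8 ± 8.68 CPM without, a rise of 0.33 (SE 0.08, edgeR adjusted p = 0.0326). CEBPG averaged 72.6 ± 17.2 CPM with SM and 62.2 ± 10.2 CPM without, a rise of 0.21 (SE 0.05, edgeR adjusted p = 0.0132). Each SD spans all 3 replicate numbers. The ranges of the SM and untreated libraries overlapped for all 10 regulators, while 6.74% of tested genes had ranges that did not overlap. In 9 of the 10 every replicate 1 library lay below every other library. For those 9 the overlap was fixed by the replicate split and does not measure the treatment effect. In these bulk samples, fewer cells of a state and less RNA of a gene per cell cannot be told apart. Some epithelial markers and 1 fibroblast marker moved in the same comparison. Of the 8 colon epithelial markers 0 had a positive estimate and 2 passed as lower with SM, KRT19 (-0.18, edgeR adjusted p = 0.00173) and VIL1 (-0.14, edgeR adjusted p = 0.0119), and their summed level was 11298 to 13539.8 CPM with SM and 11822 to 14870.5 CPM without. Of the 3 tested fibroblast markers only LUM passed, as lower (-0.41, edgeR adjusted p = 0.0271). The sum over the 6 fibroblast markers was 12.5 to 24.8 CPM with SM and 15.6 to 26.9 CPM without. Of the 2 tested leukocyte and the 2 tested endothelial markers 0 passed. The part of these markers in the regulators' difference was not tested.

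The other 6 regulators had positive log2 fold changes with SM that did not pass. CHAC1 had the largest estimate of the 10, 0.60 (SE 0.13, edgeR adjusted p = 0.0617), followed by DDIT4 at 0.41 (SE 0.14, 0.283), DDIT3 at 0.29 (SE 0.12, 0.293), ATF3 at 0.28 (SE 0.08, 0.0785), TRIB3 at 0.25 (SE 0.09, 0.243) and ATF4 at 0.21 (SE 0.07, 0.158), each second value being the edgeR adjusted p. The median over the 10 was 0.29, against -0.00091 over all tested genes. Within pairs of the same number, 9 of the 10 were higher with SM in all 3 pairs, and ATF3 was higher in 2 of 3, at a difference of -0.0043 in pair 1. The median difference over the 10 was 0.096 in pair 1, 0.39 in pair 2 and 0.31 in pair 3.

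The number of regulators called moved with the libraries used. Without the replicate block it was 0 (edgeR, unblocked standard errors of 0.55 for SESN2 and 0.84 for CHAC1), and 3 of all tested genes were called. Without the 3 libraries numbered 1 it was 10, in a fit that called 1.97% of all genes. It was 10 without SM replicate 1 (3.58% of all genes), 8 without DSM replicate 1 (2.94%) and 2 without untreated replicate 3 (0.941%). SESN2 and PPP1R15A kept their calls whichever single library was left out. CEBPB no longer passed without SM replicate 2 (edgeR adjusted p = 0.0823), SM replicate 3 (0.18), DSM replicate 3 (0.0911), or untreated replicate 1 (0.0964), 2 (0.214) or 3 (0.157), nor in DESeq2 with the same terms (0.165). CEBPG no longer passed without SM replicate 2 (0.0849), SM replicate 3 (0.188), or untreated replicate 2 (0.134) or 3 (0.164). CHAC1 passed without SM replicate 1 (0.0169), 2 (0.0441) or 3 (0.0221), DSM replicate 1 (1.53e-05) or 3 (0.0312), or untreated replicate 2 (0.0029). ATF4, TRIB3 and DDIT4 passed without SM replicate 1 (3.36e-06, 5.52e-07 and 2.68e-07) or DSM replicate 1 (0.00458, 0.00367 and 2.46e-05), ATF3 without SM replicate 1 (0.0111), and DDIT3 without SM replicate 1 (0.0134) or DSM replicate 2 (0.0485). The DDIT3 estimate of 0.29 was 0.069 without SM replicate 2.

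DSM changed 0 of the 10 regulators (edgeR adjusted p under 0.05, background 0%), and DESeq2, limma voom and edgeR without the block also called 0. SESN2 averaged 16.7 ± 7.02 CPM with DSM and 19.4 ± 9.34 CPM without, a log2 fold change of -0.19 (95% interval -0.33 to -0.05, unadjusted p = 0.00925, edgeR adjusted p = 0.999). CEBPB averaged 25.9 ± 5.86 CPM with DSM and 29.8 ± 8.68 CPM without, at -0.18 (95% interval -0.35 to -0.02, unadjusted p = 0.0336, edgeR adjusted p = 0.999). These 2 were the regulators with an unadjusted p under 0.05, a level that 4.16% of all tested genes reached. The estimates of the 10 ran from -0.22 for DDIT4 to 0.01 for PPP1R15A, 9 of them negative, with a median of -0.11 against -0.00044 over all tested genes. The 95% interval of ATF4 reached from -0.18 to 0.12 and that of CHAC1 from -0.45 to 0.19. TRIB3, ATF3, SESN2 and CEBPB were lower with DSM in all 3 pairs, and the other 6 differed in sign between pairs. Without the 3 libraries numbered 1, DDIT4 passed as lower (-0.32, edgeR adjusted p = 0.0106), the single call of that fit over all genes.

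At the same dose and time, SM and DSM, which differ in the aldehyde of SM and the alcohol of DSM, differed in 6 of the 10 regulators, all higher with SM, against 3.88% of all tested genes called in either direction, 1.73% as higher and 2.15% as lower. For SESN2, at 27.2 ± 13.5 CPM with SM and 16.7 ± 7.02 CPM with DSM, the difference was 0.67 (95% interval 0.53 to 0.81, edgeR adjusted p = 1.06e-06). CEBPB differed by 0.51 (95% interval 0.34 to 0.68, edgeR adjusted p = 0.00144), PPP1R15A by 0.25 (0.18 to 0.33, edgeR adjusted p = 1.13e-04) and CEBPG by 0.23 (0.14 to 0.33, edgeR adjusted p = 0.00464). CHAC1, at 28.3 ± 18.5 CPM with SM and 16.6 ± 9.66 CPM with DSM, differed by 0.73 (0.42 to 1.04, edgeR adjusted p = 0.025), and ATF3 by 0.37 (0.19 to 0.55, edgeR adjusted p = 0.0125). DDIT4, TRIB3, DDIT3 and ATF4 did not pass, at 0.63 (0.26 to 1.00), 0.38 (0.18 to 0.59), 0.33 (0.06 to 0.61) and 0.24 (0.09 to 0.39), with edgeR adjusted p of 0.105, 0.0691, 0.206 and 0.0905.

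In order of group means, 9 regulators ran SM, untreated, DSM, and PPP1R15A ran SM, DSM, untreated. No neighbouring groups in these orders had ranges that did not overlap. Of all tested genes 4.42% had separate ranges between DSM and untreated libraries and 6.56% between SM and DSM libraries. For all regulators but PPP1R15A, every replicate 1 library lay below every other library, so this overlap was fixed whatever the treatment did. The median difference of SM from DSM over the 10 was 0.14 in pair 1, 0.62 in pair 2 and 0.43 in pair 3, and 9 regulators were higher with SM in all 3 pairs, ATF4 in 2. Without the replicate block 0 of the 10 passed, and without the 3 libraries numbered 1 all 10 did, in a fit that called 4.01% of all genes. The count was 10 without SM replicate 1 (5.33% of all genes) and 3 without DSM replicate 3 (1.67%). SESN2, CEBPB and PPP1R15A kept their calls whichever single library was left out. ATF3 no longer passed without SM replicate 2 (edgeR adjusted p = 0.101), SM replicate 3 (0.123), DSM replicate 2 (0.104) or DSM replicate 3 (0.0846), CHAC1 without DSM replicate 2 (0.163) or 3 (0.0933), and CEBPG without SM replicate 2 (0.0533), SM replicate 3 (0.0995) or DSM replicate 3 (0.114). TRIB3 passed without SM replicate 1 (3.26e-09), DSM replicate 1 (1.42e-05) or untreated replicate 1 (0.0227) or 3 (0.0476), ATF4 and DDIT4 without SM replicate 1 (8.17e-07 and 9.98e-10) or DSM replicate 1 (2.15e-04 and 1.47e-08), and DDIT3 without SM replicate 1 (0.00503). Of the 8 epithelial markers 3 passed as lower with SM than with DSM, VIL1 (-0.14), KRT19 (-0.14) and CDH1 (-0.27), with sums of 11298 to 13539.8 CPM with SM and 11587 to 14548 CPM with DSM. LUM passed as lower too (-0.46), and the part of these markers was not tested. All comparisons share libraries, so SM against DSM and SM against untreated are not independent.

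**Figure D2:**
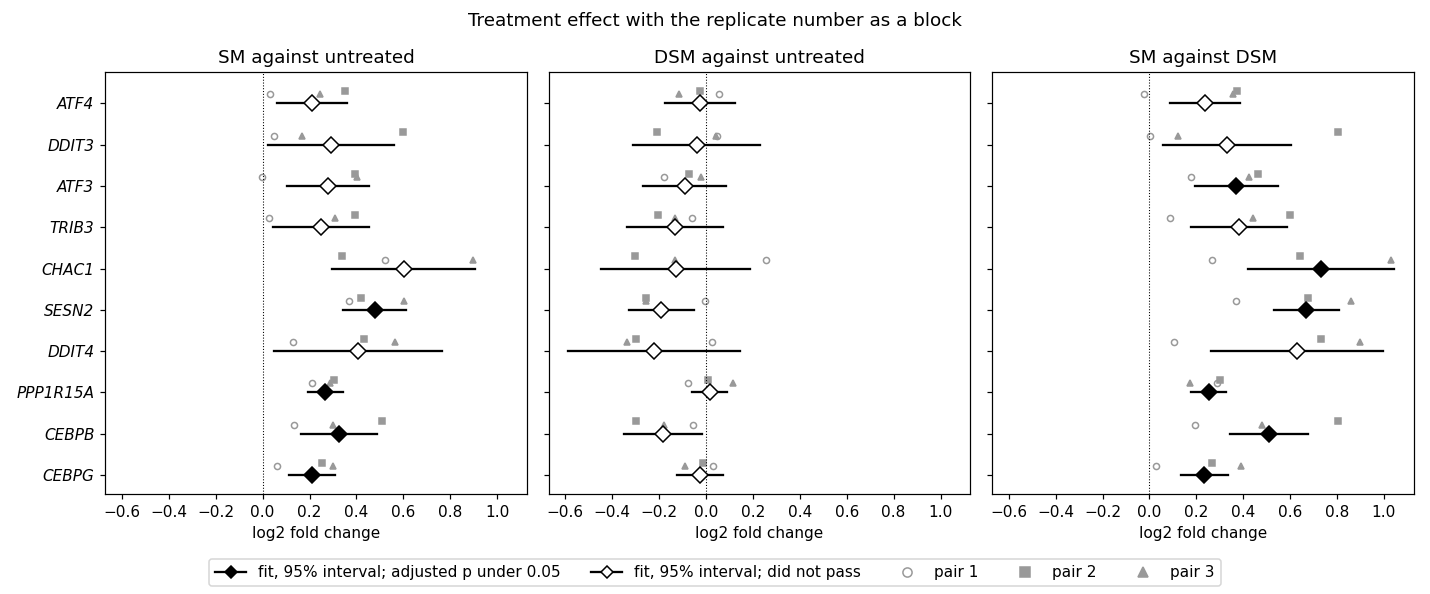
Log2 fold change (x axis) of each regulator for SM against untreated, DSM against untreated and SM against DSM, as the blocked edgeR estimate with its 95% interval (filled where the adjusted p is under 0.05) and the 3 single pairs in grey. All 10 estimates lie right of 0 in both panels of SM, and 9 of 10 left of 0 in the panel of DSM against untreated.

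The regulators were lower in the libraries numbered 1 than in those numbered 2 and 3 in every condition, and all 10 passed as lower (edgeR adjusted p under 0.05), against 42% of all tested genes called in either direction, 21.7% as higher and 20.3% as lower. CHAC1 averaged 5.92 ± 1.08 CPM in the 3 replicate 1 libraries and 28.9 ± 8.64 CPM in the other 6, a log2 difference of -2.27 (SE 0.13, edgeR adjusted p = 2.63e-06). DDIT4 averaged 25.0 ± 1.21 and 83.3 ± 21.9 CPM in the same order, at -1.70 (SE 0.14, edgeR adjusted p = 2.82e-04), and SESN2 9.89 ± 1.52 and 26.7 ± 6.98 CPM, at -1.41 (SE 0.06, edgeR adjusted p = 2.12e-14). These 3 are genes of glutathione breakdown and of mTORC1 restraint. The factor genes differed less: CEBPB by -0.83 (SE 0.07), ATF3 by -0.64 (SE 0.08), DDIT3 by -0.63 (SE 0.11), ATF4 by -0.52 (SE 0.06) and CEBPG by -0.48 (SE 0.04), with TRIB3 at -0.60 (SE 0.08) and adjusted p from 3.60e-09 for CEBPG to 7.24e-04 for DDIT3. PPP1R15A differed least, at -0.17 (SE 0.03, edgeR adjusted p = 8.77e-05), and its 2 sets of libraries overlapped, at 109.7 to 134 CPM in replicate 1 and 108 to 176 CPM in the others. In the other 9 every replicate 1 library lay below every other library, as in 15.5% of all tested genes, while in a further 16.7% every replicate 1 library lay above. The 3 replicate 1 libraries are 1 of each condition and share 1 number. SEs and p-values of this contrast, here and below, take their spread from what the additive fit leaves unexplained. They do not measure how far replicate numbers vary from each other in general.

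The ratio of replicate 1 to the mean of replicates 2 and 3 could be read in each condition. For CHAC1 it was 0.18 in SM, 0.265 in DSM and 0.189 in untreated libraries, for DDIT4 0.241, 0.393 and 0.31, and for ATF4 0.596, 0.781 and 0.717. The replicate number held 91.3% of the sum of squares of CHAC1 and the treatment 6.87%, whereas for PPP1R15A the shares were 63.6% and 33.6%. Leaving out any single library left all 10 called, in fits that called 30% to 41.8% of all genes. With the replicate number as the only term 9 were called (37% of all genes), and PPP1R15A was not (edgeR adjusted p = 0.259). Other markers moved with the same split. Of the 8 colon epithelial markers, 7 passed as higher in replicate 1 and 1 as lower, against 21.7% and 20.3% of all tested genes. The lower one was CDX2, at 10.6 ± 0.751 CPM in replicate 1 and 13.2 ± 1.44 CPM in the others. The summed level of the 8 was 13539.8 to 14870.5 CPM in replicate 1 and 11298 to 12030.5 CPM in the others. KRT8 alone averaged 7346 and 5997 CPM in the same order. Over the 6 fibroblast markers the sum was 24.8 to 26.9 CPM in replicate 1 and 12.5 to 19.3 CPM in the others, with COL3A1 and DCN at 0, and over the 5 endothelial markers 4.03 to 4.43 CPM and 1.84 to 2.83 CPM. LUM (0.90), COL1A1 (0.62), LYZ (0.68), VWF (0.71) and PECAM1 (0.96) passed as higher in replicate 1. Their part in the regulators' difference was not tested.

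**Figure D3:**
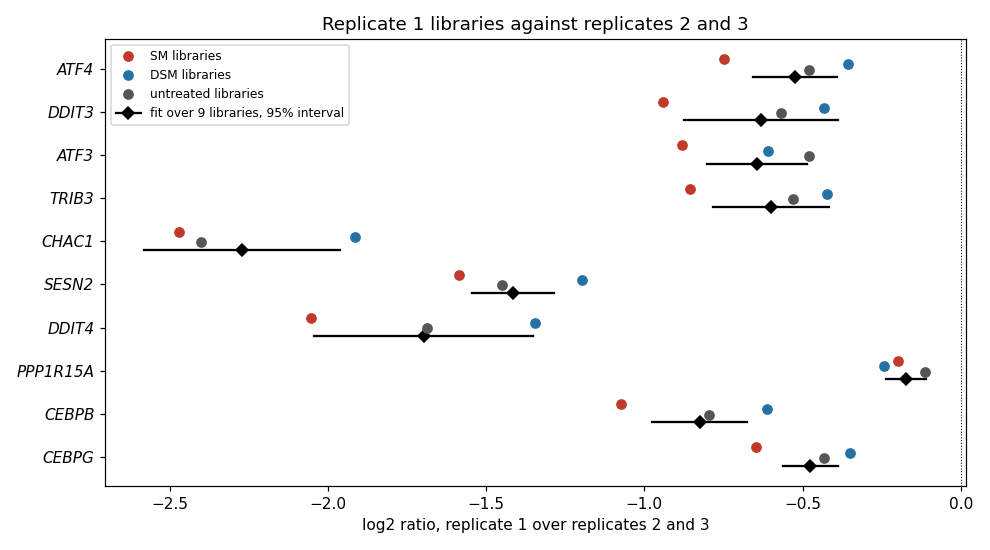
Log2 ratio (x axis) of replicate 1 over replicates 2 and 3 for each regulator, in SM, DSM and untreated libraries (coloured points) and as the edgeR estimate over 9 libraries with its 95% interval (diamonds). Every point lies left of 0, with CHAC1, DDIT4 and SESN2 farthest.

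Whether treatment effects differed between replicate 1 and the other replicates was asked with an interaction term. Each condition has 1 library numbered 1, so that arm holds no replicates of its own: the test takes its spread from the other libraries and from all genes, and assumes that the single library varies like them. The SM effect was smaller in replicate 1 by estimate for all 10 regulators, but 0 passed (edgeR adjusted p of at least 0.497), against a background of 0.0128% in either direction, 0.0064% as higher and 0.0064% as lower. DESeq2 and limma voom called 0. The interaction estimates were -0.32 for TRIB3 (SE 0.08, unadjusted p = 1.91e-04), -0.37 for DDIT4 (SE 0.10, unadjusted p = 6.81e-04) and -0.27 for ATF4 (SE 0.07, unadjusted p = 9.88e-04). An unadjusted p under 0.05 was reached by 6 of the 10, against 3.56% of all tested genes. CHAC1, at -0.10 (95% interval -0.47 to 0.28), SESN2, at -0.15 (-0.43 to 0.13), PPP1R15A, at -0.08 (-0.25 to 0.08), and DDIT3, at -0.34 (-0.71 to 0.02), had intervals that included 0. The count of 0 became 4 without SM replicate 3, with ATF4 (edgeR adjusted p = 0.00486), DDIT3 (0.0104), TRIB3 (9.31e-06) and CEBPB (0.0326), 1 without SM replicate 2, with DDIT4 (0.00311), and 1 without DSM replicate 2, with TRIB3 (0.0493). Those fits called 0.636%, 0.0568% and 0.0441% of all genes, in that order. For DSM the same test called 0 of the 10, against a background of 0.0128% in either direction, 0.0064% as higher and 0.0064% as lower, with 2 regulators, DDIT4 at 0.34 (SE 0.10, unadjusted p = 0.00162) and CHAC1 at 0.48 (SE 0.19, unadjusted p = 0.0155), under an unadjusted 0.05. DESeq2 and limma voom also called 0 there.

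Genes with the most similar course over the 9 libraries were found as those with the smallest root mean square difference of centred log2 CPM, among 10293 genes of at least 5 CPM on average, for the 7 regulators whose highest CPM was at least 2 times the lowest, which leaves out ATF4, CEBPG and PPP1R15A. For DDIT3 they were ATF3 (0.12 log2 units), TRIB3 (0.15) and MXI1 (0.15), and for ATF3 PLD6 (0.10), COQ8A (0.11) and TRIB3 (0.11). TRIB3 lay nearest to MTHFD2 (0.07), ATF4 (0.08) and COQ8A (0.08). CHAC1 lay nearest to ADM2 (0.25), ASS1 (0.27) and DDIT4 (0.29), DDIT4 to ADM2 (0.08), PHGDH (0.16) and SLC1A4 (0.16), and SESN2 to DDIT4 (0.16), PCK2 (0.16) and S100P (0.18). CEBPB lay nearest to STC2 (0.10), MXI1 (0.11) and KCTD15 (0.12). Among the regulators themselves ATF4 and CEBPG were the closest pair (0.04) and CHAC1 and PPP1R15A the farthest (1.01). The distances are not scaled to each gene's range, so they also follow how far each gene varied. The highest library held 1.76 times the lowest for ATF4, 1.64 for CEBPG, 8.15 for CHAC1 and 1.62 for PPP1R15A. The replicate number held 63.6% (PPP1R15A) to 91.3% (CHAC1) of each regulator's sum of squares. The distances rest on the same 9 libraries and their depths.

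Upstream of the regulators, 0 of 8 genes of the eIF2 kinases and of proteins that act on them passed with SM against untreated cells in edgeR (0 at an unadjusted p under 0.05). GCN1, the GCN2 activator, had a log2 fold change of -0.0049 (SE 0.03) and EIF2AK1, the HRI gene, one of -0.02 (SE 0.03). Of 12 eIF2, eIF2B and phosphatase genes 0 passed (2 unadjusted), with EIF2S3 at -0.02 (SE 0.03) and EIF2S2 at 0.12 (SE 0.04), and of 12 other bZIP and stress factors 0 passed (1 unadjusted), with NFE2L1 at 0.05 (SE 0.03) and XBP1 at 0.08 (SE 0.04). Between replicate numbers, where 42% of all tested genes passed, 3 of these 8 genes did, a share near that background. All 3 were lower in replicate 1: the PKR gene EIF2AK2 (-0.20, SE 0.03), GCN1 (-0.14, SE 0.03) and IMPACT (-0.29, SE 0.05). IMPACT encodes an inhibitor of GCN2, not a kinase or an activator. Of the 12 eIF2, eIF2B and phosphatase genes 3 passed as lower and 2 as higher, together near the 42% of all tested genes. EIF2S2, the beta subunit gene of eIF2, differed by -0.35 (SE 0.04), and PPP1CB was higher by 0.16 (SE 0.03). JDP2, a bZIP relative of ATF3, stood at 4.92 ± 0.495 CPM in replicate 1 and 10.3 ± 1.64 CPM in the others, a difference of -1.06 (SE 0.09, edgeR adjusted p = 2.86e-09). In all, 7 of the 12 other factors passed as lower in replicate 1, against 20.3% of all tested genes. A further 1, ATF2, passed as higher (0.25, SE 0.04), against 21.7%.

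Downstream, ATF4 targets of amino acid synthesis and transport rose with SM in 10 of 20 cases and fell in 0, with a list median of 0.16, against 1.2% of all tested genes higher and 1.54% lower. SLC7A11, the cystine transporter gene, rose by 0.30 (SE 0.04), PHGDH, the first enzyme of serine synthesis, by 0.27 (SE 0.04), the glycine transporter gene SLC6A9 by 0.41 (SE 0.06) and the cationic amino acid transporter gene SLC7A1 by 0.19 (SE 0.03). Of 13 genes of tRNA charging and export, 5 rose and 0 fell, among them XPOT, the tRNA exportin gene (0.22, SE 0.04), SARS1 (0.19, SE 0.04), GARS1 (0.17, SE 0.04) and EPRS1 (0.14, SE 0.04). Of 5 secreted stress factors 4 rose: STC2 by 0.39 (SE 0.04), VEGFA by 0.39 (SE 0.05), GDF15 by 0.28 (SE 0.04) and INHBE by 0.57 (SE 0.11). With DSM 0 genes of these lists passed in edgeR, and 5 of the amino acid, 0 of the charging and 0 of the secreted factor genes had an unadjusted p under 0.05. That level was reached by 4.16% of all tested genes. Of the 20 amino acid genes 2 had a positive estimate with DSM, and the list median was -0.06. Against DSM, SM was higher in 13 of the 20, 8 of the 13 and 4 of the 5, against 1.73% of all tested genes. All counts by list come from the blocked model, and without the block 3 of all tested genes were called for SM against untreated and 0 for SM against DSM.

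In replicate 1 most genes of these lists were lower. Of the 20 amino acid genes 17 passed as lower and 1 as higher, against 20.3% and 21.7% of all tested genes, with PHGDH at 54.7 ± 6.72 CPM in replicate 1 and 189 ± 25.4 CPM in the others (-1.78, SE 0.03), the serine transporter gene SLC1A4 at -1.69 (SE 0.06) and the mitochondrial folate enzyme gene ALDH1L2 at -2.08 (SE 0.10). Of the 13 charging genes 12 passed as lower, led by XPOT (-0.61, SE 0.03) and LARS1 (-0.58, SE 0.03). Among the secreted factors INHBE, an activin subunit gene, stood at 0.829 ± 0.052 CPM in replicate 1 and 8.25 ± 2.43 CPM in the others, and VEGFA at 39.7 ± 4.40 and 82.8 ± 13.7 CPM. The hepatokine gene FGF21 had 0 counts in all 3 replicate 1 libraries and 0.0569 to 0.381 CPM in the others. GDF15, named here after its value was seen, was the one secreted factor that passed as higher in replicate 1.

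Of 14 endoplasmic reticulum chaperones and related genes, which ATF6 and XBP1 control, 8 fell with SM, 0 rose and 6 did not pass, among them 3 with positive estimates. Of all tested genes 1.54% passed as lower and 1.2% as higher. The list median was -0.16. CALR averaged 589.7 ± 63.7 CPM with SM and 709.7 ± 52.1 CPM without, a fall of 0.27 on the log2 scale (SE 0.03, edgeR adjusted p = 3.62e-05). HSPA5, encoding the chaperone BiP, had a log2 fold change of -0.22 (SE 0.03), the oxidoreductase gene PDIA4 of -0.21 (SE 0.03) and MANF of -0.24 (SE 0.04), and all of these passed. Against DSM, 7 were lower with SM and 1, HERPUD1, was higher (0.18, SE 0.05), where 2.15% and 1.73% of all tested genes passed. In replicate 1, 6 of the 14 passed as higher and 1 as lower, which together is near the 42% of all tested genes that passed there, with HSPA5 at 0.28 (SE 0.03) and HERPUD1 at -0.30 (SE 0.04).

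Among genes around SESN2 and mTORC1, 1 of 8 tested fell with SM, against 1.54% of all tested genes. SESN3, a sestrin gene known as a FOXO target, averaged 15.7 ± 3.94 CPM with SM and 21.5 ± 6.69 CPM without and fell by 0.45 (SE 0.06, edgeR adjusted p = 3.54e-05). It was also 0.66 higher in replicate 1 (SE 0.05), at 25.7 ± 4.84 CPM there and 16.2 ± 2.43 CPM in the others. The other 7 tested genes did not pass for SM. EIF4EBP1, the translation repressor gene and an ATF4 target, differed by 0.23 between SM and DSM (SE 0.05, edgeR adjusted p = 0.0317). In a list of 8 genes around CHOP, ATF4 and cell death, PMAIP1, which encodes NOXA, rose by 0.26 with SM (SE 0.05, edgeR adjusted p = 0.00173) and 7 did not pass. That list also holds ERO1A, TRIB1 and TRIB2, which are not cell death genes as such. Of all tested genes 1.2% passed as higher there. Of 8 mitochondrial chaperone and protease genes 0 passed for SM against untreated in edgeR (2 at an unadjusted p under 0.05), with HSPD1 at 0.01 (SE 0.03) and HSPA9 at 0.08 (SE 0.04), and LONP1, the matrix protease gene, was 0.18 higher with SM than with DSM (SE 0.04, edgeR adjusted p = 0.0117).

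**Figure D4:**
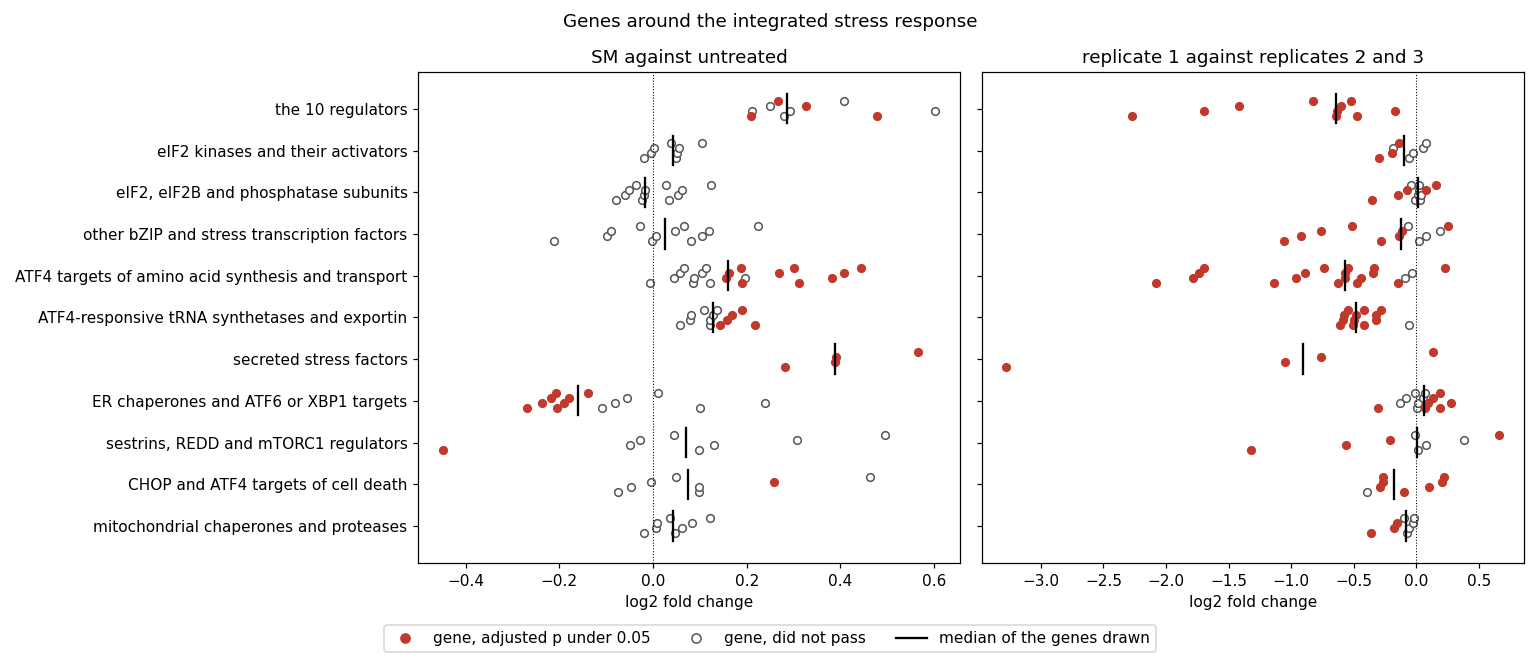
Log2 fold change (x axis) of each gene by list, for SM against untreated (left) and replicate 1 against replicates 2 and 3 (right), with red points for edgeR adjusted p under 0.05, open points for genes that did not pass and a bar at the median of the genes drawn. FGF21, at 0 counts in replicate 1, is not drawn, and the 2 panels have different scales. The medians of the ATF4 target lists lie right of 0 on the left and left of 0 on the right, and that of the chaperone list the reverse.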

How the data were processed

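TRIzol was used for RNA extraction and NuGEN's Universal Plus mRNA-seq kit for the libraries, per the labels' protocols. In the submitters' processing notes stand, with no role or order, featureCounts 2.0.0, TopHat2 2.1.1, hg38, DESeq2 1.26.0, MultiQC 1.10.1, cutadapt 3.4, FastQC 0.11.9 and bcl2fastq 2.20.0.422. Strand setting, handling of multi-mapping reads and annotation are stated nowhere in these sources. The values used are the deposited raw counts per gene, which the authors did not normalize in that table. The authors' normalized table was not used.

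The analysis ran in R 4.3.3. Counts entered edgeR 4.0.16 (filterByExpr by group, minimum count 10, minimum total 15, TMM factors from 0.981 to 1.02, robust quasi-likelihood F tests, two-sided, Benjamini-Hochberg over 15619 genes), with group and replicate number as terms and all 9 libraries. CPM use TMM-scaled totals, and log2 CPM a prior count of 2. SEs and 95% intervals follow from the F statistic. The script was tested on simulated data. Same-numbered libraries deviated together from their group means: their 9 correlations lay between 0.227 and 0.582, against -0.404 to 0.161 for different numbers, so the numbers pair the samples by the data, as the labels give no shared source. Replicates of a group differed beyond sampling noise, with a chi-square per degree of freedom of 6.89 to 36.5. Alternatives were DESeq2 1.42.0, limma 3.58.1 voom, other scalings and filters, no block, no robust estimation and left-out libraries.

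The 10 genes and the lists were chosen with earlier results of these data known. The text names all 10, up to 4 genes of each list with the smallest adjusted p among those called (failing that, the 2 of highest CPM), and the 3 nearest genes in likeness for regulators whose highest CPM was at least 2 times the lowest. This rule covers no cell type markers: those named, and HERPUD1 between SM and DSM, were chosen after their values were seen. Promoter windows and positions are RefSeq's, matched for all 10 genes. The summed level of the leukocyte marker list is not reported here.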

Additional observations from a re-analysis of the deposited data

How the results depend on the processing

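Without the replicate block, 0 of the 10 regulators were called for SM against untreated (4 with it), 0 for SM against DSM (6 with it) and 0 for DSM against untreated. With no filter on low counts the counts were 10, 10 and 1, in the order SM against untreated, SM against DSM and DSM against untreated. The shares of all genes called there were 3.1%, 3.95% and 0.031%. Without robust estimation SM against untreated gave 8 (2.7% of all genes), and a fit of only those 2 groups with the block gave 9 (3.93%). Without the 3 libraries numbered 1 the counts were 10, 10 and 1 in the same order (1.97%, 4.01% and 0.00639% of all genes). With 1 library left out, the count ranged from 2 to 10 for SM against untreated, from 3 to 10 for SM against DSM and from 0 to 4 for the SM interaction with replicate 1, and stayed at 0 for DSM against untreated and its interaction and at 10 for replicate 1 against the others. Over all genes these fits called 0.941% to 3.58% for SM against untreated and 1.67% to 5.33% for SM against DSM. They called 0% to 0.636% for the SM interaction and 30% to 41.8% for replicate 1 against the others. Each interaction was fitted with 7 of the 9 libraries left out in turn, since it cannot be estimated without the replicate 1 library of its own treatment or of untreated cells.

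No estimate of a regulator changed sign for SM against untreated, SM against DSM or replicate 1 against the others under any alternative. Estimates that changed sign did so with 1 library left out. For DSM against untreated the left-out ranges were -0.113 to 0.0251 for ATF4, -0.13 to 0.132 for DDIT3, -0.233 to 0.0349 for CHAC1, -0.0297 to 0.0514 for PPP1R15A and -0.0852 to 0.0325 for CEBPG. For the interactions they were -0.328 to 0.148 for CHAC1 with SM and -0.111 to 0.362 for DDIT3 with DSM. Scaling by DESeq2 size factors or library totals, the stricter filter, DESeq2 and limma voom left the counts at 4 or 5 for SM against untreated and at 6 to 8 for SM against DSM. The shares of all genes called there were 2.46% to 3.31% and 3.27% to 4.69%, in the same order. The causes of these changes were not tested.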
